A study of Planococcus citri with 8 samples.

Results

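The genes described here are the sugar transporter-like members of the major facilitator superfamily in the citrus mealybug *Planococcus citri*. The members are all gene models whose InterPro entry in the deposited annotation is IPR005828, the major facilitator, sugar transporter-like domain. There were 141 such genes of 40620 gene models in the count table, spread over 62 scaffolds of the Pcitri.v1 assembly. Members are given by their gene-model names, because the sources used here pair none of them with a gene symbol or a transported substrate.

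Virgin females were compared with mated females, 4 libraries in each group, with poly(A) RNA from a pool of approximately 150 whole adult females (about 100 mg) in every library. All insects were of 1 laboratory colony kept on lemons. Virgin pools 2, 3, 5 and 6 came from young insects of that colony raised in separate boxes, where male cocoons were taken off by hand. Mated pools 8, 9, 10 and 11 came from the main stock colony and were taken once egg sacs were present. The effects of mating, of laying eggs and of the rearing conditions cannot be told apart in this design. Since whole insects were used, a difference in the number of cells of a type and a difference in RNA per cell cannot be told apart either. The labels do not say whether the pools came from separate cultures, so p-values measure the spread between these pools.

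Total counts were 29667566 to 40309575 read pairs in the virgin pools and 33242618 to 50301861 in the mated pools, so that 1 count was worth 0.0208 to 0.0327 CPM (the count scaled to the size of its library). Virgin pool 2 stood apart from the rest of its group. Over all genes its mean correlation was 0.912 with the other virgin pools and 0.921 with the mated pools. On the first principal component it lay at 8.55, against 131 to 153 for the other virgin pools and -139 to -83.3 for the mated pools. Results are therefore given with and without it where it mattered. Levels are CPM after TMM scaling, and fold changes are log2 of virgin over mated from edgeR's quasi-likelihood test, called at a Benjamini-Hochberg adjusted p under 0.05 over all genes tested. CPM is not corrected for gene length, so a comparison of levels between members is one of read share only.

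Major facilitators are membrane proteins that carry small solutes across a membrane by alternating between an outward-open and an inward-open form. Sugar transporter-like members move hexoses or disaccharides in the cases where function is known, which include the facilitative glucose transporters of mammals and the trehalose transporter of insects. Mealybugs feed on phloem sap, which is rich in sucrose, and insects carry sugar in the haemolymph largely as trehalose, so sugar has to cross membranes both in the gut and at the tissues that take it up. The domain does not tell which solute a given protein carries, and relatives in the same family transport other small molecules.

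Most of the sugar transporter-like genes were higher in virgin females. All 141 passed the filter on low counts, and 81 of them (57.4%) were called higher in virgin females, 7 (4.96%) lower, and 53 did not pass the test. Over all genes tested, 26.4% were called higher and 21.3% lower. Among the tested genes that carry any InterPro entry, the shares were 28.3% and 20.5%. The median log2 fold change of the members was 1.30, against 0.03 for all genes, and 118 of 141 had a positive sign. Of the members called higher, 71 had a log2 fold change above 1 and 44 above 2, with a median of 2.17. A call with a log2 fold change above 2 was made for 9.85% of all genes. The 4 virgin pools lay above all 4 mated pools in 50 members and below them in 7, against background shares of 22.1% and 21.1% of all genes.

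The deposited annotation covers only genes above 1 CPM in 3 or more libraries, so a member with low expression could have entered through one group only. There were 8 members under 1 CPM in every mated pool. Of the 122 members with a mated mean of at least 1 CPM, 66 were called higher in virgin females. Among all tested genes of the deposited annotation, 27.7% were called higher. The share among those with a mated mean of at least 1 CPM was not counted. Gene models under that limit carried no annotation and were not analysed here.

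**Figure D1:**
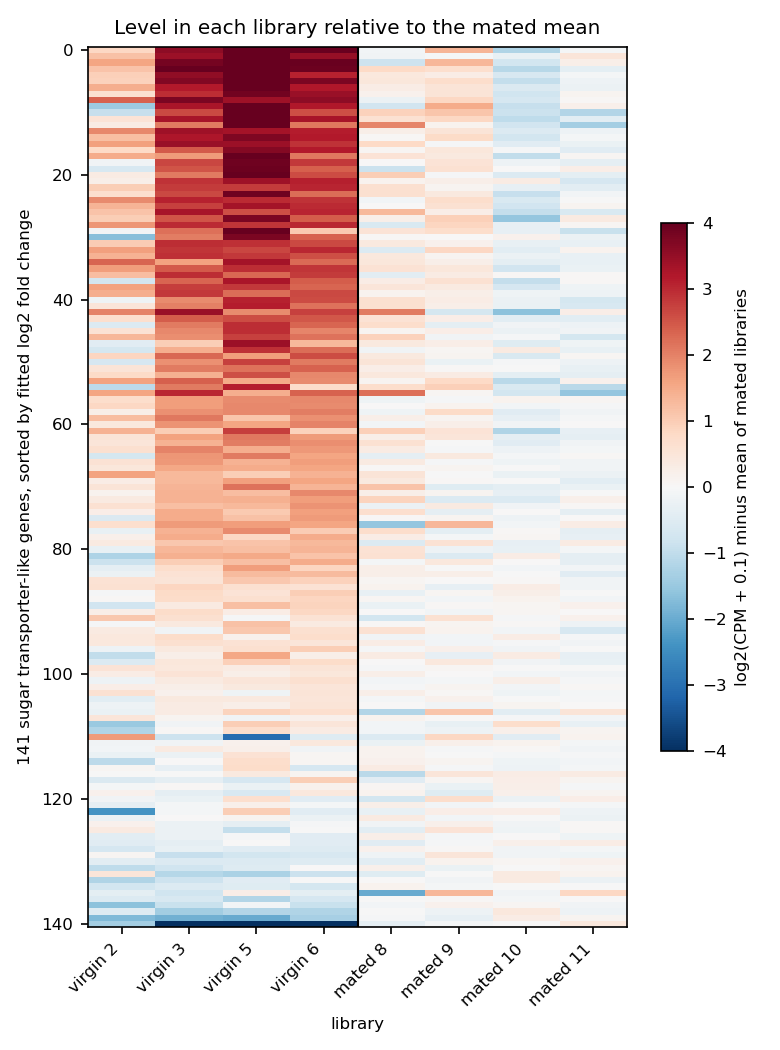
Level of the 141 sugar transporter-like genes in each library, as log2(CPM + 0.1) minus the mean of the mated libraries, with virgin libraries to the left of mated ones and genes sorted by fitted log2 fold change. Virgin pools 3, 5 and 6 are redder than the mated pools over most of the upper rows, and virgin pool 2 is paler and the lowest virgin pool in 104 genes.

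The summed level of the members was 3339, 5996, 6674 and 6086 CPM in virgin pools 2, 3, 5 and 6, against 2963, 3221, 2800.1 and 2822 CPM in mated pools 8, 9, 10 and 11. Every virgin pool was above every mated pool, with pool 2 the nearest to the mated range. The median member stood at 9.02, 15.0, 20.7 and 17.3 CPM in the virgin pools and at 7.08, 7.55, 5.66 and 5.74 CPM in the mated pools. The members thus took 0.346% to 0.642% of all counts in virgin pools and 0.267% to 0.315% in mated pools.

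The member with the most reads, g38163 on scaffold PCITRI_01058, did not pass the test. It stood at 572, 1006, 1009 and 1082 CPM in the virgin pools and at 729, 861, 759 and 744 CPM in the mated pools. The groups overlapped because virgin pool 2 was below all mated pools, whereas the other 3 virgin pools were above them. Its log2 fold change was 0.25 ± 0.20 (SE, adjusted p = 0.327, edgeR), and without virgin pool 2 it was 0.41 (adjusted p = 0.00708). With g38163 set aside, the other members summed to 2767 to 5666 CPM in the virgin pools and 2041 to 2360.3 CPM in the mated pools, and the groups still did not overlap.

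Of the 6 members with the most reads, 4 were higher in virgin females. Among them g21983 on PCITRI_00088 differed most, with 215, 569.8, 446 and 503 CPM in the virgin pools against 36.0, 75.5, 26.4 and 43.9 CPM in the mated pools. Its lowest virgin pool was well above its highest mated pool, and the mean was 433 ± 154 CPM in virgin females, against 45.5 ± 21.3 CPM in mated ones (SD, n = 4 each). The log2 fold change of g21983 was 3.25 ± 0.38 (SE, adjusted p = 0.00133, edgeR), and it ranged from 3.04 to 3.60 over all settings tried.

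A similar separation was seen for g29851 on PCITRI_00436, which lies in a row of neighbouring members described further on. Its levels were 199, 455, 423 and 394 CPM in the virgin pools and 49.9, 86.9, 35.2 and 53.2 CPM in the mated pools. The mean was 368 ± 115 CPM in virgin females, against 56.3 ± 21.9 CPM in mated ones (SD, n = 4 each), a log2 fold change of 2.71 ± 0.33 (SE, adjusted p = 0.00137, edgeR).

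The neighbours g26513 and g26512 on PCITRI_00261 were higher by a smaller factor. Gene g26513 had 103, 221, 212 and 226 CPM in the virgin pools against 78.1, 80.8, 74.9 and 67.7 CPM in the mated pools. Gene g26512 had 105, 159, 169.5 and 239 CPM in the virgin pools against 58.3, 87.9, 63.0 and 70.9 CPM in the mated pools. In both genes virgin pool 2 was the lowest of its group and still above every mated pool. The log2 fold changes were 1.34 ± 0.23 for g26513 and 1.26 ± 0.24 for g26512 (SE, adjusted p = 0.00326 and 0.00444, edgeR).

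The remaining member of these 6, g32279 on PCITRI_00585, averaged 113 ± 18.3 CPM in virgin females, against 119 ± 13.3 CPM in mated ones (SD, n = 4 each). Its groups overlapped, and the test was not passed (log2 fold change -0.08 ± 0.14 SE, adjusted p = 0.67, edgeR). The fold between the group means of the 6 members with the most reads thus ran from 0.949 for g32279 to 9.53 for g21983.

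**Figure D2:**
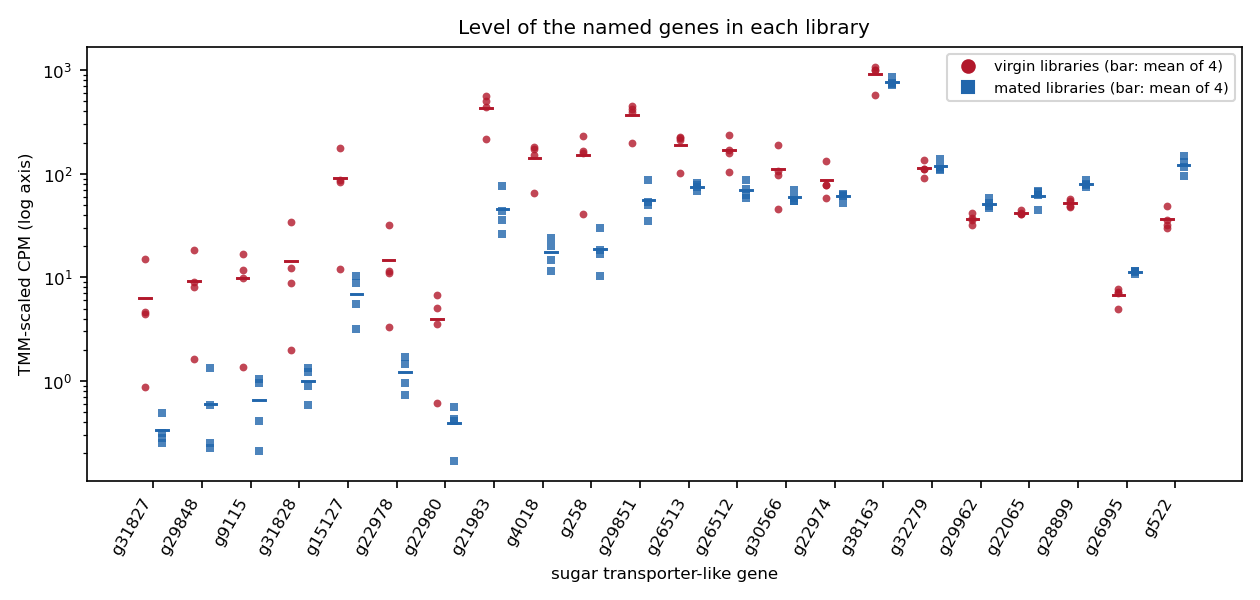
TMM-scaled CPM on a log axis in each pool for the named sugar transporter-like genes, with virgin pools to the left of mated pools within each gene; points are pools and bars are group means. The pools are separate for g21983 (215 to 569.8 CPM in virgin, 26.4 to 75.5 CPM in mated females) and overlap for g38163 and g32279.

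The 10 largest increases among members with separate groups ran from a log2 fold change of 3.003 to 4.22. They fell into genes that were abundant in virgin females and genes that stood at only 0.167 to 1.71 CPM in the mated pools. The abundant ones were g21983, g15127, g4018 and g258. Gene g15127 on PCITRI_04399 had 11.9, 83.9, 179 and 87.0 CPM in the virgin pools and 8.75, 10.3, 3.18 and 5.53 CPM in the mated pools. Virgin pool 2 was only just above the highest mated pool here, and pool 5 was the highest by far. The mean was 90.4 ± 68.3 CPM in virgin females, against 6.93 ± 3.18 CPM in mated ones (SD, n = 4 each), and the log2 fold change was 3.71 ± 0.68 (SE, adjusted p = 0.00536, edgeR).

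Genes g4018 and g258 were more even. Gene g4018 on PCITRI_01534 had 65.0, 180.1, 173 and 151 CPM in the virgin pools against 19.9, 24.1, 11.6 and 14.8 CPM in the mated pools, a log2 fold change of 3.01 ± 0.34 (SE, adjusted p = 0.00127, edgeR). Gene g258 on PCITRI_00003 had 40.9, 167, 234 and 159.8 CPM in the virgin pools against 18.3, 29.7, 10.4 and 16.7 CPM in the mated pools, a log2 fold change of 3.003 ± 0.50 (SE, adjusted p = 0.00329, edgeR). In both genes every virgin pool was above every mated pool, with virgin pool 2 the nearest to the mated range.

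The other 6 of these increases belonged to genes of lower expression. Gene g31827 on PCITRI_00551 had the largest log2 fold change under the naming rule, 4.22 ± 0.74 (SE, adjusted p = 0.0042, edgeR). It stood at 0.871, 4.45, 15.0 and 4.67 CPM in the virgin pools and at 0.283, 0.317, 0.250 and 0.492 CPM in the mated pools. With every mated pool under 1 CPM, it met the limit of the annotation through virgin pools only, and that selection favoured a higher call. The groups did not overlap, but the size of the difference rested on pool 5, and without it the log2 fold change was 3.30 (adjusted p = 0.00688). Its neighbour g31828 had 1.97, 12.3, 34.4 and 8.84 CPM in the virgin pools against 1.33, 1.22, 0.583 and 0.898 CPM in the mated pools. The log2 fold change of g31828 was 3.84 ± 0.72 (SE, adjusted p = 0.00576, edgeR) and 2.93 without virgin pool 5.

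Gene g29848, a neighbour of g29851, had 1.63, 8.08, 18.2 and 8.92 CPM in the virgin pools against 0.227, 1.34, 0.250 and 0.579 CPM in the mated pools. The log2 fold change was 3.93 ± 0.77 (SE, adjusted p = 0.00631, edgeR), or 4.70 with mated pool 9 left out and 3.36 with virgin pool 5 left out. Gene g9115 on PCITRI_02358 had 1.35, 11.8, 16.7 and 9.94 CPM in the virgin pools against 1.05, 0.950, 0.208 and 0.406 CPM in the mated pools. Its virgin pool 2 was close to mated pool 8, and the log2 fold change was 3.93 ± 0.74 (SE, adjusted p = 0.00549, edgeR). The last members of this set, g22978 and g22980, lie close to each other on PCITRI_00118 and had log2 fold changes of 3.59 ± 0.61 and 3.35 ± 0.66 (SE, adjusted p = 0.00383 and 0.006, edgeR). In g22978 the log2 fold change was 2.83 without virgin pool 5. Gene g22980 stood at 0.167 to 0.561 CPM in the mated pools. Like g31827, it met the limit of the annotation through virgin pools only.

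The largest fitted increase of any member was that of g22976, also on PCITRI_00118, which was singled out after its values were seen because its groups overlapped. It had 0.309, 2.65, 8.10 and 3.47 CPM in the virgin pools, and in the mated pools 0.113, 0.487 and 0.116 CPM with no count in pool 10. Virgin pool 2 was below mated pool 9. All mated pools were under 1 CPM, so g22976 also met the limit of the annotation through virgin pools only. Its log2 fold change of 4.32 ± 1.10 (SE, adjusted p = 0.0158, edgeR) was no longer called without mated pool 11 (adjusted p = 0.0507).

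Few members were lower in virgin females, and the differences were mostly small. The largest of the 7 was that of g522 on PCITRI_00008, with 35.5, 31.7, 30.001 and 48.4 CPM in the virgin pools against 117, 95.8, 148 and 131 CPM in the mated pools. The groups were far apart and virgin pool 2 was within the range of its own group. The log2 fold change of g522 was -1.75 ± 0.19 (SE, adjusted p = 0.00107, edgeR) and stayed between -1.91 and -1.67 over all settings tried. Its neighbour g521, named after its values were seen, did not pass the test, with 4.72 ± 1.68 CPM in virgin females, against 7.09 ± 1.35 CPM in mated ones (SD, n = 4 each).

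Gene g28899 on PCITRI_00379 was lower with little spread in either group. It stood at 47.7, 54.9, 56.8 and 49.0 CPM in the virgin pools and at 87.9, 75.3, 78.6 and 79.1 CPM in the mated pools, a log2 fold change of -0.62 ± 0.10 (SE, adjusted p = 0.00214, edgeR). Separate groups with log2 fold changes between -0.75 and -0.50 were also seen for g26995, g22065 and g29962. Gene g26995 averaged 6.72 ± 1.20 CPM in virgin females, against 11.3 ± 0.374 CPM in mated ones, and g29962 averaged 36.6 ± 3.92 CPM in virgin females, against 51.7 ± 5.09 CPM in mated ones (SD, n = 4 each). In g22065 the mated pool 8 (44.7 CPM) was next to the highest virgin pool (44.3 CPM), while the other mated pools stood at 63.1 to 67.8 CPM.

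The remaining lower calls, named after their values were seen or as the call of a row of neighbours, were weaker in expression or in their test. Gene g1501 averaged 0.779 ± 0.253 CPM in virgin females, against 1.74 ± 0.408 CPM in mated ones (SD, n = 4 each). Gene g21406 on PCITRI_00069 had overlapping groups, since virgin pool 5 (25.6 CPM) was within the mated range of 25.4 to 31.5 CPM. The adjusted p of g21406 was 0.0493 (edgeR), and leaving out any one mated pool, virgin pool 3 or virgin pool 6, or changing the filter on low counts, ended the call (adjusted p up to 0.111).

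Among the 53 members that did not pass the test, 37 had a positive sign and the median log2 fold change was 0.18. Several of them had a wide spread among the virgin pools. Gene g30566 on PCITRI_00473 had 46.2, 97.1, 190.2 and 108 CPM in the virgin pools against 69.7, 58.2, 55.1 and 54.3 CPM in the mated pools. Virgin pool 2 was below every mated pool and the other virgin pools above them, and the adjusted p was 0.0701 with virgin pool 2 and 0.0037 without it (log2 fold change 0.89 and 1.14, edgeR). Gene g22974 on PCITRI_00118 had virgin pool 2 within the mated range and the other virgin pools above it, with 58.4, 78.8, 134 and 78.0 CPM in the virgin pools against 61.7, 64.4, 62.8 and 52.7 CPM in the mated pools (adjusted p = 0.0918 with virgin pool 2 and 0.0192 without it).

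A pair of members chosen after their values were seen showed how far virgin pool 2 could depart from its group. Gene g24884 on PCITRI_00188 had 12.5, 0.229, 0.284 and 0.600 CPM in the virgin pools against 25.3, 30.7, 32.8 and 43.2 CPM in the mated pools. All virgin pools were below all mated pools, but pool 2 was far above the other virgin pools. Its log2 fold change was -3.27 ± 1.13 (SE, adjusted p = 0.0543, edgeR), and without virgin pool 2 it was -6.45 (adjusted p = 4.46e-05). Gene g11145 on PCITRI_02839 had 90.9, 15.3, 3.25 and 19.3 CPM in the virgin pools against 19.0, 49.4, 20.3 and 30.4 CPM in the mated pools, so that virgin pool 2 held the highest level of all 8 libraries and pool 5 the lowest (adjusted p = 0.921, edgeR).

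**Figure D3:**
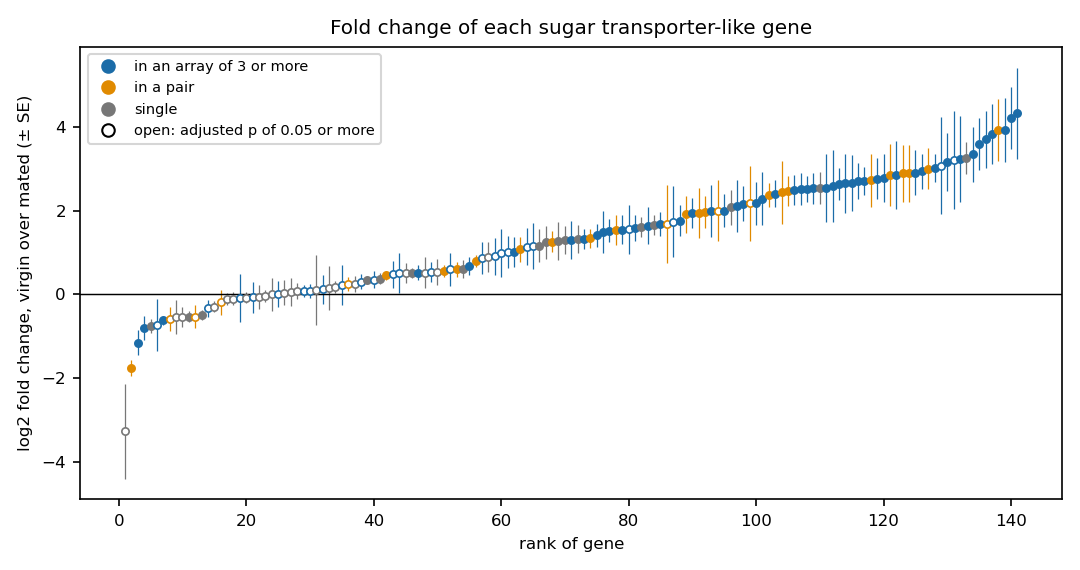
Fitted log2 fold change of virgin over mated females with its SE for each of the 141 sugar transporter-like genes, sorted from low to high. Colour marks members of arrays, pairs and single members, filled points passed the test and open points did not; the 81 higher calls fill most of the right side, and the lowest point, g24884 at -3.27, is open.

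Many members lie next to each other in the genome. A row of neighbouring members was defined as at least 3 members on 1 scaffold whose gene-model numbers differ by no more than 5 from the next, and such rows are called arrays here. There were 11 arrays on 10 scaffolds with 75 members, 14 pairs with 28 members, and 38 members without a neighbour in the family. Between the members of the arrays lay 17 other gene models, of which 7 were tested and 10 had no more than 100 counts over all libraries. Near-identical copies lose read pairs when only unique matches are counted, and how alike the array members are was not measured, so their levels are uncertain.

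Of the 75 array members, 47 (62.7%) were higher in virgin females, 3 lower and 25 not called, with a median log2 fold change of 1.73. Of the 28 pair members, 20 (71.4%) were higher, 1 lower and 7 not called, with a median of 1.80. Of the 38 members without a neighbour, 14 (36.8%) were higher, 3 lower and 21 not called, with a median of 0.21. Members that share an array are not independent of each other, and this difference by place was not tested. The count of 14 was 8 without mated pool 10 or mated pool 11, and 9 without mated pool 9, virgin pool 3 or virgin pool 6. The counts in arrays and pairs moved as well. Without mated pool 11 they were 32 and 15, and 19.5% of all genes were called higher. Without virgin pool 2 they were 59 and 22, with 17 single members, and 31.4% of all genes were called higher. Among the 14 pairs, both genes were higher in 8, one was higher and the other not called in 4, and neither was called in 1. The last pair was that of g521 and g522.

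The largest array spans 21 gene models on PCITRI_00118, from g22973 to g22993, and 20 of them are members. Within it 15 members were higher in virgin females and 5 did not pass, with log2 fold changes of -0.33 to 4.32 and a median of 2.18. The summed level of this array was 211, 405, 676 and 433 CPM in the virgin pools against 208, 187, 169 and 164 CPM in the mated pools. Virgin pool 2 was only just above the highest mated pool, and pool 5 was the highest virgin pool in 17 of the 20 members. The number called higher in this array was 8 without mated pool 11 and 9 without virgin pool 5, against 17 without virgin pool 2. The member with the smallest p in the array was g22977, with 17.5, 29.8, 42.5 and 39.7 CPM in the virgin pools against 8.04, 7.46, 3.16 and 4.43 CPM in the mated pools (log2 fold change 2.49 ± 0.36 SE, adjusted p = 0.0021, edgeR).

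In 3 arrays all members were called higher in virgin females with all pools. These were the 8 members from g29848 to g29860 on PCITRI_00436, the 5 from g31826 to g31832 on PCITRI_00551 and the 4 from g15126 to g15130 on PCITRI_04399. Their median log2 fold changes were 2.61 on PCITRI_00436, 3.17 on PCITRI_00551 and 2.65 on PCITRI_04399. The array of PCITRI_00436 summed to 306, 749, 738 and 629 CPM in the virgin pools against 102, 131, 62.6 and 86.0 CPM in the mated pools, and in each virgin pool most of this came from g29851. The array of PCITRI_00551 summed to 34.6, 123, 186 and 126 CPM in the virgin pools against 13.7, 22.9, 11.4 and 12.7 CPM in the mated pools. That of PCITRI_04399 summed to 63.8, 214, 305 and 232 CPM in the virgin pools against 25.1, 40.8, 17.7 and 25.4 CPM in the mated pools. The summed level of each of these arrays was higher in every virgin pool than in any mated pool. The 5 members on PCITRI_00551 kept their calls in every setting tried. On PCITRI_04399 the call of g15130 was lost with limma voom and without mated pool 9, 10 or 11 or virgin pool 5 or 6 (adjusted p up to 0.106). On PCITRI_00436 that of g29853 was lost with upper-quartile scaling, without a filter on low counts, and without mated pool 8, 10 or 11 or virgin pool 3, 5 or 6 (adjusted p up to 0.121). Both were picked out after their values were seen.

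The members with the smallest p in the last 2 were g31832 and g15128. Gene g31832 had 24.3, 56.9, 52.8 and 58.6 CPM in the virgin pools against 4.64, 13.04, 5.66 and 7.50 CPM in the mated pools (log2 fold change 2.64 ± 0.38 SE, adjusted p = 0.00201, edgeR). Gene g15128 had 48.8, 113, 98.1 and 125 CPM in the virgin pools against 10.6, 27.7, 11.4 and 16.9 CPM in the mated pools (log2 fold change 2.53 ± 0.37 SE, adjusted p = 0.00219, edgeR). Pool 5 was not the highest virgin pool in either gene, although it was in their neighbours g31827, g31828 and g15127.

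Other arrays were mixed. On PCITRI_00379, from g28892 to g28899, 4 of 7 members were higher and g28899 was lower, with log2 fold changes of -0.62 to 1.52. This array summed to 187, 234, 194 and 222 CPM in the virgin pools against 203, 175, 176 and 174 CPM in the mated pools, and the groups overlapped through virgin pools 2 and 5. The count of 4 was 2 without mated pool 9, mated pool 11 or virgin pool 3. On PCITRI_01534, from g4012 to g4021, 4 of 9 members were higher, g4018 among them, and the other 5 were not called.

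Scaffold PCITRI_00029 carries 2 arrays. In the 4 members from g1497 to g1501, 2 were higher and g1501 was lower, and the smallest p was that of g1500, with 23.7 ± 9.41 CPM in virgin females, against 8.12 ± 2.51 CPM in mated ones (SD, n = 4 each; log2 fold change 1.55 ± 0.34 SE, adjusted p = 0.00832, edgeR). In the 8 members from g1511 to g1520, 3 were higher, led by g1511 at 9.60 ± 6.31 CPM in virgin females, against 1.27 ± 0.356 CPM in mated ones (SD, n = 4 each; log2 fold change 2.91 ± 0.54 SE, adjusted p = 0.00471, edgeR). In this second array the count of 3 was 7 without virgin pool 2 and 1 without virgin pool 5, mated pool 10 or mated pool 11. Virgin pool 2 was the lowest virgin pool in all 8 members.

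The last 3 arrays held few calls, and each call depended on single pools. On PCITRI_02183, from g8176 to g8179, 1 of 3 members was called, g8178, with 10.4 ± 7.95 CPM in virgin females, against 2.62 ± 0.567 CPM in mated ones (SD, n = 4 each; adjusted p = 0.0325, edgeR). All 3 were called without virgin pool 2. Gene g8178 lost its call without virgin pool 5, virgin pool 6 or any one mated pool (adjusted p of 0.0633 to 0.0891, edgeR). It also lost it with limma voom on all pools (adjusted p = 0.146). On PCITRI_00410, from g29406 to g29411, g29408 was the 1 call among 4 members (log2 fold change 1.64 ± 0.44 SE, adjusted p = 0.018, edgeR). It was lost without mated pool 10 (adjusted p = 0.0563) or mated pool 11 (0.0541), and 3 of the 4 were called without virgin pool 2. On PCITRI_00069, g21406 was the 1 call among 3 members, in the lower direction, as given above.

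**Figure D4:**
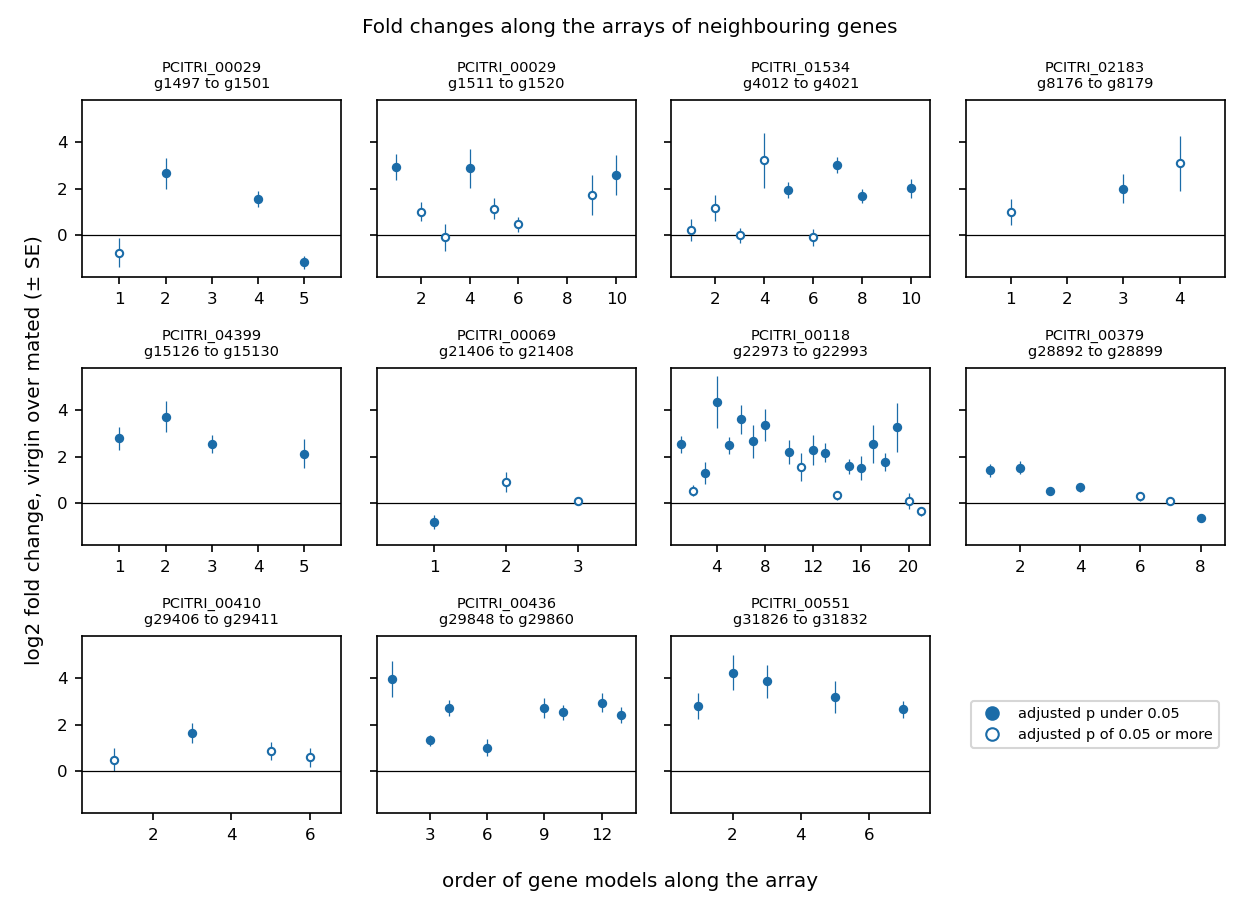
Fitted log2 fold change of virgin over mated females with its SE for each member of the 11 arrays of neighbouring sugar transporter-like genes, one panel per array, in the order of the gene models; filled points passed the test. All points of PCITRI_00436, PCITRI_00551 and PCITRI_04399 are filled and above 0 in this fit of all pools, and 7 of the 75 array members have a negative log2 fold change.

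The level of the members varied more among virgin than among mated pools. The median spread of a member on the log2 scale was 0.68 (SD) over the 4 virgin pools and 0.35 over the 4 mated pools, and 113 of 141 members were more spread in virgin females. Over all genes the medians were 0.38 in virgin and 0.23 in mated pools. Without virgin pool 2 the median spread among virgin pools was 0.33 for the members and 0.23 for all genes. How many of all genes were more spread in virgin than in mated pools was not counted.

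Virgin pool 2 was the lowest virgin pool in 104 of the 141 members, against 39.5% of all genes. Among the 81 members called higher it was the lowest in 71, and over all genes called higher the share was 78.7%. In 58 of the 81 its level was nearer to the mated mean than to the mean of the other virgin pools. This was not counted over all genes, where its mean correlation was 0.912 with virgin and 0.921 with mated pools. Of the 81, 50 had no overlap between groups. In a further 29 the other virgin pools were above all mated pools and virgin pool 2 was not. In some of these virgin pool 2 was below only the highest mated pool, so the overlap rested on that mated pool as well. Examples, picked after their values were seen, were g1498, g22975 and g29408. Neither count was taken over all genes called higher. Without virgin pool 2, 98 members were called higher and 10 lower, including all 81 and all 7 of the calls made with it. Over all genes, 31.4% were then called higher and 30.6% lower. What set virgin pool 2 apart was not tested.

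Virgin pool 5 stood at the other end. It was the highest virgin pool in 72 members, against 27.4% of all genes, and in 42 of the 81 called higher, against 45.9% of all genes called higher. In 28 members its level was at least 2 times the mean of virgin pools 3 and 6, and in 4 it was at most 0.5 times that mean. The median of this ratio over the members was 1.12. Of the 28, 21 were array members, while 75 of all 141 members lie in arrays. Whether array members were more frequent among the 28 was not tested. The ratio was not taken over all genes, so a high pool 5 is not shown to be particular to the members. The largest such ratio was 8.59, that of g8179 on PCITRI_02183, which was named after its values were seen. Gene g8179 had 0.590, 2.23, 19.4 and 2.30 CPM in the virgin pools against 2.07, 0.512, 0.229 and 0.116 CPM in the mated pools, and it did not pass the test (adjusted p = 0.0693, edgeR). A gene chosen in the same way, g36535 on PCITRI_00909, had 11.04, 12.9, 83.1 and 17.3 CPM in the virgin pools against 5.69, 5.09, 1.92 and 4.08 CPM in the mated pools. Its groups did not overlap, and the log2 fold change was 2.89 with virgin pool 5 and 1.70 when that pool was left out (adjusted p = 0.0128 and 0.0117, edgeR). Without virgin pool 5, 63 members were called higher and 8 lower, and of all genes 22.1% were called higher and 19.1% lower.

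The sugar transporter-like genes were set beside lists of related genes, taken by InterPro entry from the same fit. The other major facilitators (IPR011701), which carry many kinds of solute, gave nearly the same shares. Of 229 tested, 131 (57.2%) were higher and 17 (7.42%) lower in virgin females, with a median log2 fold change of 1.13. They summed to 4870.1 to 6885 CPM in the virgin pools and 4091 to 4379 CPM in the mated pools. The calls with the smallest p were g31186 and g22744 in the higher direction and g5239 and g16226 in the lower. Gene g31186 averaged 11.7 ± 1.57 CPM in virgin females, against 2.22 ± 0.433 CPM in mated ones, and g16226 averaged 38.2 ± 6.51 CPM in virgin females, against 70.6 ± 4.30 CPM in mated ones (SD, n = 4 each).

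Of 23 genes for other sugar and water carriers, 13 were higher and 4 lower. All 4 SWEET genes, a separate family of sugar uniporters, were higher in virgin females. The SWEET gene g23157 had 41.4, 61.3, 48.2 and 59.9 CPM in the virgin pools against 17.8, 23.0, 17.4 and 19.5 CPM in the mated pools. The groups were far apart and virgin pool 2, though lowest, was close to pool 5 (log2 fold change 1.44 ± 0.16 SE, adjusted p = 0.00112, edgeR). Sodium/solute symporters were higher in 5 and lower in 1 of 9, with g16462 among the higher (log2 fold change 1.52). Major intrinsic proteins, the aquaporin family, were higher in 4 and lower in 3 of 10. The lower ones included g570, at 2.80 ± 0.949 CPM in virgin females, against 18.9 ± 7.27 CPM in mated ones (SD, n = 4 each), and g24042 (log2 fold change -0.65).

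Most genes for enzymes that split or use sugars were higher in virgin females as well. Of 91 sugar hydrolases, 64 (70.3%) were higher and 2 lower, with a median log2 fold change of 2.02. They summed to 2309.6, 6598, 9424 and 6643 CPM in the virgin pools and 1749.9, 2653, 1705 and 1937 CPM in the mated pools, so that virgin pool 2 was within the mated range. Family 13, which in insects holds maltases and sucrases, was higher in 37 of 53 genes. Family 1, which holds beta-glucosidases, was higher in 12 of 16, g39266 and g13356 among them, and family 31 in 11 of 12. Trehalases (family 37), which split the trehalose of the haemolymph, were higher in 4 and lower in 1 of 10. The lower trehalase was g33307, at 158 ± 25.6 CPM in virgin females, against 254 ± 35.0 CPM in mated ones (SD, n = 4 each; adjusted p = 0.00713, edgeR), and the other lower hydrolase was g32194 of family 13, whose groups overlapped.

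Of 14 genes with a glycolysis entry, 12 were higher and 2 did not pass, with a median log2 fold change of 1.05. Phosphoglucose isomerase, g30040, stood at 406, 551, 839.7 and 671 CPM in the virgin pools against 183, 296, 167 and 195 CPM in the mated pools (log2 fold change 1.55 ± 0.26 SE, adjusted p = 0.00282, edgeR). The pyruvate kinase g7987 had a log2 fold change of 1.66. Of 4 glycogen synthase and phosphorylase genes, 1 was higher, the glycogen synthase g36841 at 109 ± 9.43 CPM in virgin females, against 69.6 ± 11.7 CPM in mated ones (SD, n = 4 each).

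Lists of genes chosen by domain to mark parts of the insect were counted in the same way, although a domain alone does not show where a gene is expressed. The list named gut digestive peptidases held all 151 genes with a papain-like, trypsin-like or aspartic peptidase domain, and none was tied to the gut by these data. Of them 42 were higher, 31 lower and 78 not called, with a median log2 fold change of -0.06. They summed to 8005 to 11167 CPM in the virgin pools and 7982 to 8968 CPM in the mated pools. Papain-like peptidases were higher in 18 and lower in 2 of 27, trypsin-like ones higher in 22 and lower in 20 of 94, and aspartic ones higher in 2 and lower in 9 of 30. Named members of this list were g676 and g14712, both higher, and g18876 and g6786, both lower. Of 43 insect cuticle proteins, 24 were higher and 6 lower, with sums of 562 to 10427 CPM in virgin and 789 to 1399.9 CPM in mated pools, and virgin pool 2 was the lowest virgin pool in 39 of the 43. Examples were g2037 and g10353, higher, and g25022 and g29308, lower.

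On the lists for the yolk protein domain and for DNA replication, every called gene was lower in virgin females. The domain used for yolk is annotated as that of lipid transport proteins, and none of its 4 genes was tied to yolk by these data. They summed to 215 to 273 CPM in the virgin pools and 388 to 436 CPM in the mated pools, with a median log2 fold change of -0.15. Of the 4, 3 did not pass the test. The other, g36282, was lower at 162 ± 43.3 CPM in virgin females, against 315 ± 20.1 CPM in mated ones (SD, n = 4 each). Of 8 genes with a domain of the MCM replication helicase, 6 were lower, g2995 and g4982 among them, with sums of 377 to 578 CPM in virgin and 820 to 1075 CPM in mated pools. Of 11 genes with Piwi or PAZ domains, 1 was higher (g21083) and 2 lower (g29661 and g1056). The call of g1056 was lost without mated pool 8 or 11 or virgin pool 3 or 6 (adjusted p of 0.0552 to 0.0686, edgeR). Every list had reads in every library. The part of these lists in the result for the sugar transporter-like genes was not tested.

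**Figure D5:**
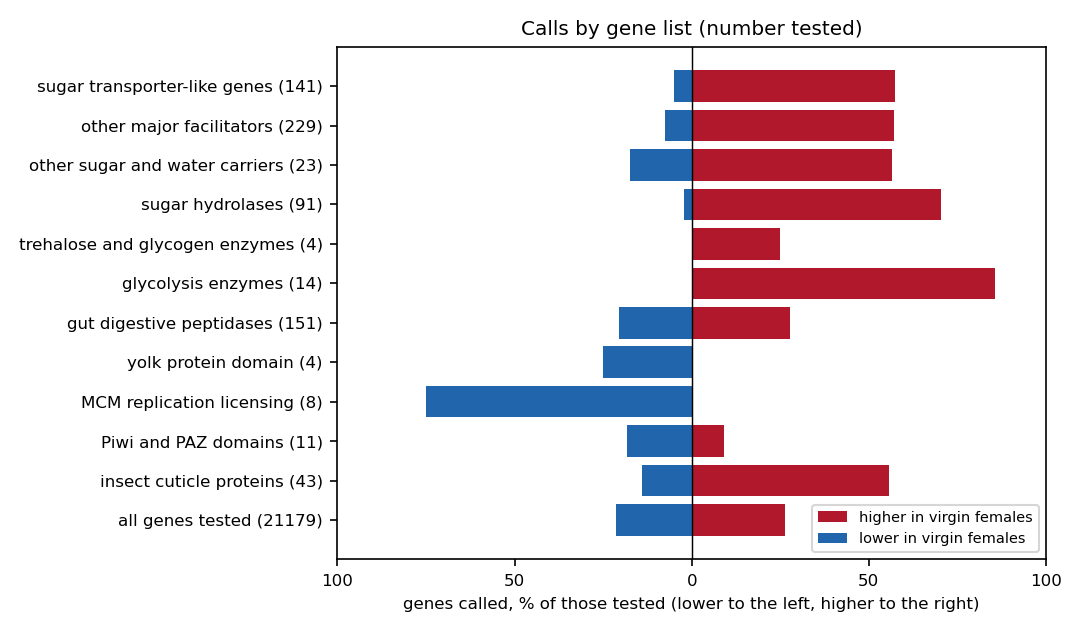
Percent of the tested genes of each list called higher (bars to the right) and lower (bars to the left) in virgin females, with the number tested in parentheses. The sugar transporter-like genes (57.4% higher, 4.96% lower) and the other major facilitators (57.2% and 7.42%) lie close together, and all genes tested are at 26.4% higher and 21.3% lower.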

How the data were processed

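RNA-seq (stranded, paired-end) of 4 virgin and 4 mated pools of *P. citri* females was analysed. The authors mapped read pairs to the Pcitri.v1 genome in CLC Genomics Workbench and deposited raw counts, in which each gene model has its number of unique matches per library. It is not stated whether the strand of a read entered the count. Tools named in the submitters' processing notes are FastQC, limma 3.34.9, edgeR 3.20.9 and R 3.4.2. In another deposited table, of 17669 genes, the authors' own test results (log2 fold changes and adjusted p-values) were left unused, and the InterPro column, filled with 1 entry for 11584 genes, chose the members. Deposited log2 CPM values were not used.

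The counts were tested with edgeR 4.0.16 in R 4.3.3 (filterByExpr, TMM, glmQLFit, glmQLFTest, condition only, two-sided), and 21179 of 40620 genes were tested with Benjamini-Hochberg adjustment at 0.05. CPM are TMM-scaled, and SE is the Wald error of the log2 fold change. The smallest total count of a member was 308. Alternatives were DESeq2 1.42.0, limma 3.58.1 (voom with and without sample weights), other scalings and filters, and each pool left out. No pair of pools had counts within sampling noise of each other. The test was tried on simulated data.

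Members, related lists and marker lists were chosen with earlier results of these data known. The lists were other major facilitators, other sugar and water carriers, sugar hydrolases, trehalose and glycogen enzymes, glycolysis enzymes, gut digestive peptidases, yolk protein domain, MCM, Piwi and PAZ, and insect cuticle proteins. Entries of these lists that matched no gene were left out. Named were the 10 largest higher and up to 8 largest lower called members with mean log2 CPM of at least 1 and groups that did not overlap, the 6 members with the most reads, the 4 with the most reads among those not passed, the call with the smallest p in each array, and up to 2 calls each way per list. Members outside this rule are said to be so where their values are given.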

Additional observations from a re-analysis of the deposited data

Results flagged for a closer look

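In 4 of 82 groups of 4 pools, among the named members and the list sums, 1 pool lay far from the other 3 by Dixon's criterion, which chance gives in about 1 of 20 groups. In 3 of these the pool was virgin pool 2 and it was low. Gene g38163 stood at 572.1 CPM there, against 1006 to 1082 CPM in the other virgin pools. Gene g26513 stood at 102.7 CPM, against 212 to 226 CPM in the others. Gene g31832 stood at 24.3 CPM, against 52.8 to 58.6 CPM in the others. The remaining one was the summed level of the genes with the yolk protein domain, which was 214.8 CPM in virgin pool 3 and 265 to 273 CPM in the other virgin pools.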

How the results depend on the processing

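No paired analysis was possible because the virgin and mated pools share no replicate numbers. Over 16 alternatives the direction of every called member held, and 54 of the 81 higher and 6 of the 7 lower members were called in each. Members called higher numbered 69 with limma voom and 101 with its sample weights, and members called lower 6 to 10. Leaving out 1 pool at a time gave 55 to 98 higher, 6 to 10 lower and a median log2 fold change of 1.17 to 1.51. Over all genes it gave 4217 to 6891 higher and 3438 to 6724 lower, and with sample weights 6877 were lower. Upper-quartile scaling called 5058 genes higher and 5334 lower, and 73 members higher and 9 lower. The log2 fold change of g32279, not called, was 0.0014 without virgin pool 2 (adjusted p = 0.993) and -0.19 without virgin pool 5.

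Leaving out pools gave 101 to 158 higher and 9 to 27 lower other major facilitators, 9 to 12 higher sugar and water carriers, 50 to 67 higher and 2 to 4 lower hydrolases, 1 to 2 higher trehalose and glycogen enzymes, 11 to 14 higher glycolysis genes, 24 to 49 higher and 22 to 37 lower gut peptidases, 6 to 7 lower MCM genes, 1 to 3 higher and 1 to 4 lower Piwi and PAZ genes, and 11 to 30 higher and 4 to 7 lower cuticle genes. Lower other major facilitators numbered 26 with DESeq2 and 32 with sample weights. Lower hydrolases numbered 1 with voom, weighted or not, and higher cuticle genes 9 with voom. With sample weights 2 trehalose and glycogen enzymes were higher, and 3 Piwi and PAZ genes were higher and 4 lower, against 1 lower with library size alone. The cause of these shifts was not tested.

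Of the calls named in the text, those of g21406, g8178, g29408, g22975, g22976, g15130, g29853 and g1056 depended on single pools. The call of g22975 was lost without mated pool 9, 10 or 11 or virgin pool 3, 5 or 6. It was also lost with library size only, upper-quartile scaling and no filter on low counts (adjusted p up to 0.127, edgeR). The call of g1056 depended on the scaling too, with an adjusted p of 0.0603 for library size only (edgeR). Gene g32194 lost its call with voom (adjusted p = 0.0883) and with sample weights (0.0706). Depth did not limit the abundant members, but the folds of g31827, g29848, g22980 and g22976 rest on few counts in mated pools. Gene lengths, transcript models and sequences of the members were not used here.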
